A study of Mus musculus with 8 samples.

Results

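A set of 10 genes that oxidize ethanol and its product acetaldehyde, or that remove reactive oxygen, were followed in whole brains of adult mice exposed to ethanol before birth. They were the alcohol dehydrogenase genes Adh1 and Adh5, the aldehyde dehydrogenase genes Aldh2 and Aldh1a1, the catalase gene Cat, the cytochrome P450 gene Cyp2e1, the superoxide dismutase genes Sod1 and Sod2, the glutathione peroxidase gene Gpx1 and the heme oxygenase gene Hmox1. Each was read through the probe sets (groups of array probes against 1 transcript) that carry its symbol and no other. Of several such probe sets, the one with the highest mean over the 8 arrays would be taken, but each of the 10 genes had 1. They are therefore 10 of the 19938 genes with such a probe set, and 10 of the 23410 probe sets tested, out of 35556 in the table.

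Pregnant C57BL/6J females received ethanol (2.5 g/kg in saline, 2 injections a day) or the same volume of saline, and whole brain RNA was taken from their male offspring at postnatal day 70. There were 4 groups of 2 Affymetrix Mouse Gene 1.0 ST arrays. Early ethanol was given on gestational days 8 and 11, and early saline on the same days, while late ethanol was given on gestational days 14 and 16, with late saline on those days. Each array held RNA pooled from 3 males, taken from different litters to limit litter effects, so a spread between arrays is a spread between pools and not between single mice.

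Ethanol is oxidized to acetaldehyde by alcohol dehydrogenases in the cytosol, by CYP2E1 in the endoplasmic reticulum and by catalase in peroxisomes, and acetaldehyde is then oxidized to acetate by aldehyde dehydrogenases, chiefly ALDH2 in mitochondria. In the liver the alcohol dehydrogenase route dominates, whereas the adult brain expresses little class I alcohol dehydrogenase and catalase takes a larger part there. CYP2E1 and acetaldehyde are sources of reactive oxygen, which superoxide dismutases turn into hydrogen peroxide, and catalase and glutathione peroxidases turn the peroxide into water. Hmox1 breaks down heme and is switched on by oxidative stress through the transcription factor Nrf2, which binds antioxidant response elements in DNA.

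The promoters of 3 of the genes are shown because they differ in such elements, and because Cat and Gpx1 had the most similar profiles among the 10 genes over the arrays. Each is a RefSeq window of 300 bases on the GRCm38.p6 build, from 250 bases before the start of transcription to 50 after it, at chr16:90220512-90220811 (plus strand) for Sod1, chr2:103485104-103485403 (minus strand) for Cat and chr9:108338830-108339129 (plus strand) for Gpx1. Capitals mark matches, on either strand, to the antioxidant response element core TGACNNNGC, the heat shock element pair GAANNTTC, the CCAAT box CCAAT and the TATA box TATAAA. The last pair of motifs was added after the windows had been looked at. No marked matches overlap.
Sod1: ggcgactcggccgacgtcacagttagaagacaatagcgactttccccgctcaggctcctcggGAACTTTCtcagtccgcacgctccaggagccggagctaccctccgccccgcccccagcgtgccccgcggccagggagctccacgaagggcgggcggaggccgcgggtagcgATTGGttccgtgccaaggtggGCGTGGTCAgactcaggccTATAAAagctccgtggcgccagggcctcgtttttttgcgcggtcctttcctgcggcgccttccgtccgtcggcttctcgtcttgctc
Cat: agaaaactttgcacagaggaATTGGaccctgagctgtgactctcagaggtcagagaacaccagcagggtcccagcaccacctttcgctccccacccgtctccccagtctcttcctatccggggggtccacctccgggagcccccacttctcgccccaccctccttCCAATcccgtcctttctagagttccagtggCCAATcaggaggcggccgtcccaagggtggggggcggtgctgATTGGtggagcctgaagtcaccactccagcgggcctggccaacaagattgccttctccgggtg
Gpx1: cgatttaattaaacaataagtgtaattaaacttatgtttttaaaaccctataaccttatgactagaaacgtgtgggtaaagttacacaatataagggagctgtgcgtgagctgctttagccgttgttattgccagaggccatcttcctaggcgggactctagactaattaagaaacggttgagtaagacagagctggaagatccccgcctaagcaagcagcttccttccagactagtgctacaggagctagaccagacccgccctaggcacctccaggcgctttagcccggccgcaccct

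Among the windows of the 8 genes found in the promoter table, only that of Sod1 held the antioxidant response element core, as GCGTGGTCA on the minus strand with its first base at -56. It also held GAACTTTC at -188, ATTGG at -77 and TATAAA at -37, counted from the start of transcription. The Cat window held 4 CCAAT matches, at -230, -85, -55 and -13, and the Gpx1 window held none of the 4 motifs. Of 32851 promoter windows of this length, 12.4% held the antioxidant response element core, 7.86% the heat shock element pair, 37.4% a CCAAT box and 13.6% the TATA box, so a match is a description of the sequence and not evidence of a bound site. Aldh2 and Hmox1 had no window in the table.

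All values below are log2 signals as deposited, and a difference is the mean of the ethanol arrays minus the mean of the saline arrays of the same timing on that scale. Over the tested probe sets the medians of the early arrays ran between 7.10 and 7.14 and those of the late arrays between 7.57 and 7.60, and levels were not compared between timings because these appear to have been normalized apart. Smell and pheromone receptor genes (1374 probe sets), which are little transcribed in the brain, gave a background level, taken as the 95th percentile of their signals. It averaged 6.73 early and 7.75 late. In the late arrays this level was 8.02 and 7.47 with ethanol and 7.56 and 7.97 with saline, so that late ethanol array 1 and late saline array 2 stood above the others. Within a timing any pair of arrays correlated at 0.993 or more over all tested probe sets. All 8 neuronal markers (among them Snap25 and Rbfox3) were above background, as the tissue label would have it, whereas the liver markers Alb, Apoa1, Fgb, Cyp3a11, Tat and Ahsg were at background in both timings. Of the 7 measured liver markers the other one, Ttr, was far above background, and it is also a leading gene of the choroid plexus of the brain. In whole tissue, fewer cells of a type and less RNA per cell cannot be told apart.

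Adh1, which encodes the class I alcohol dehydrogenase that clears most ethanol in the liver, was at background in every array. Its values were 5.42 and 5.49 with early ethanol and 5.58 and 5.47 with early saline, and 6.34 and 6.24 with late ethanol and 6.10 and 6.25 with late saline. The groups overlapped in both timings. The difference was -0.067 (SE 0.090) early and 0.12 (SE 0.090) late, with adjusted p = 1 in both.

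Adh5, the class III enzyme, acts mainly on formaldehyde bound to glutathione and is made in nearly all tissues. It was well above background, at 9.34 and 9.14 with early ethanol and 9.38 and 9.20 with early saline, and at 9.85 and 9.95 with late ethanol and 10.01 and 9.81 with late saline. In both timings 1 saline array was the highest of the 4, and the groups overlapped. The differences were -0.053 early and -0.013 late (SE 0.11 each).

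Aldh2, the mitochondrial enzyme that oxidizes acetaldehyde, read 7.85 and 8.03 with early ethanol and 8.28 and 7.76 with early saline. The ethanol arrays lay between the saline arrays, which were themselves 0.52 apart, the widest range over the early arrays among the 10 genes. The early difference of -0.080 (SE 0.16) became -0.34 without early saline array 2 (unadjusted p = 0.0287 in limma), which is past the thresholds the study used (an unadjusted p under 0.05 with 1.2-fold either way), and 0.18 without early saline array 1. In the late arrays Aldh2 read 8.88 and 9.03 with ethanol and 9.19 and 9.08 with saline. Both late ethanol arrays were below both late saline arrays, with a difference of -0.18 (SE 0.16, unadjusted p = 0.296 in limma, adjusted p = 1).

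Aldh1a1 encodes a cytosolic aldehyde dehydrogenase that makes retinoic acid from retinaldehyde and that marks a subset of midbrain dopamine neurons. It read 10.53 and 10.40 with early ethanol and 10.42 and 10.34 with early saline, and 11.20 and 11.29 with late ethanol and 11.40 and 11.31 with late saline. The early groups overlapped by 0.018, the lower ethanol array lying under the higher saline array. The late groups did not, and the lower saline array was 0.013 above the higher ethanol array. The difference was 0.087 early and -0.11 late (SE 0.088 each). It was the gene of the 10 whose early and late differences lay farthest apart, by 0.20 (95% interval -0.089 to 0.48, unadjusted p = 0.153 in limma).

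Cat, the peroxisomal enzyme that breaks down hydrogen peroxide and can use it to oxidize ethanol, read 10.48 and 10.27 with early ethanol and 10.44 and 10.36 with early saline. Here the ethanol arrays enclosed the saline arrays, and the difference was -0.029 (SE 0.093). Late ethanol arrays read 9.93 and 9.97, below the late saline arrays at 10.10 and 10.04. That difference was -0.12 (SE 0.093, unadjusted p = 0.244 in limma).

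Cyp2e1, the ethanol-oxidizing cytochrome P450 that is abundant in the liver and induced there by drinking, was at background in all 8 arrays. It read 5.50 and 5.41 with early ethanol and 5.51 and 5.53 with early saline, and 5.76 and 5.76 with late ethanol and 5.87 and 5.82 with late saline. Both ethanol arrays were below both saline arrays in each timing, with differences of -0.067 early and -0.084 late (SE 0.076 each), and at signals under the receptor background these differences cannot be read as levels of the transcript.

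**Figure D1:**
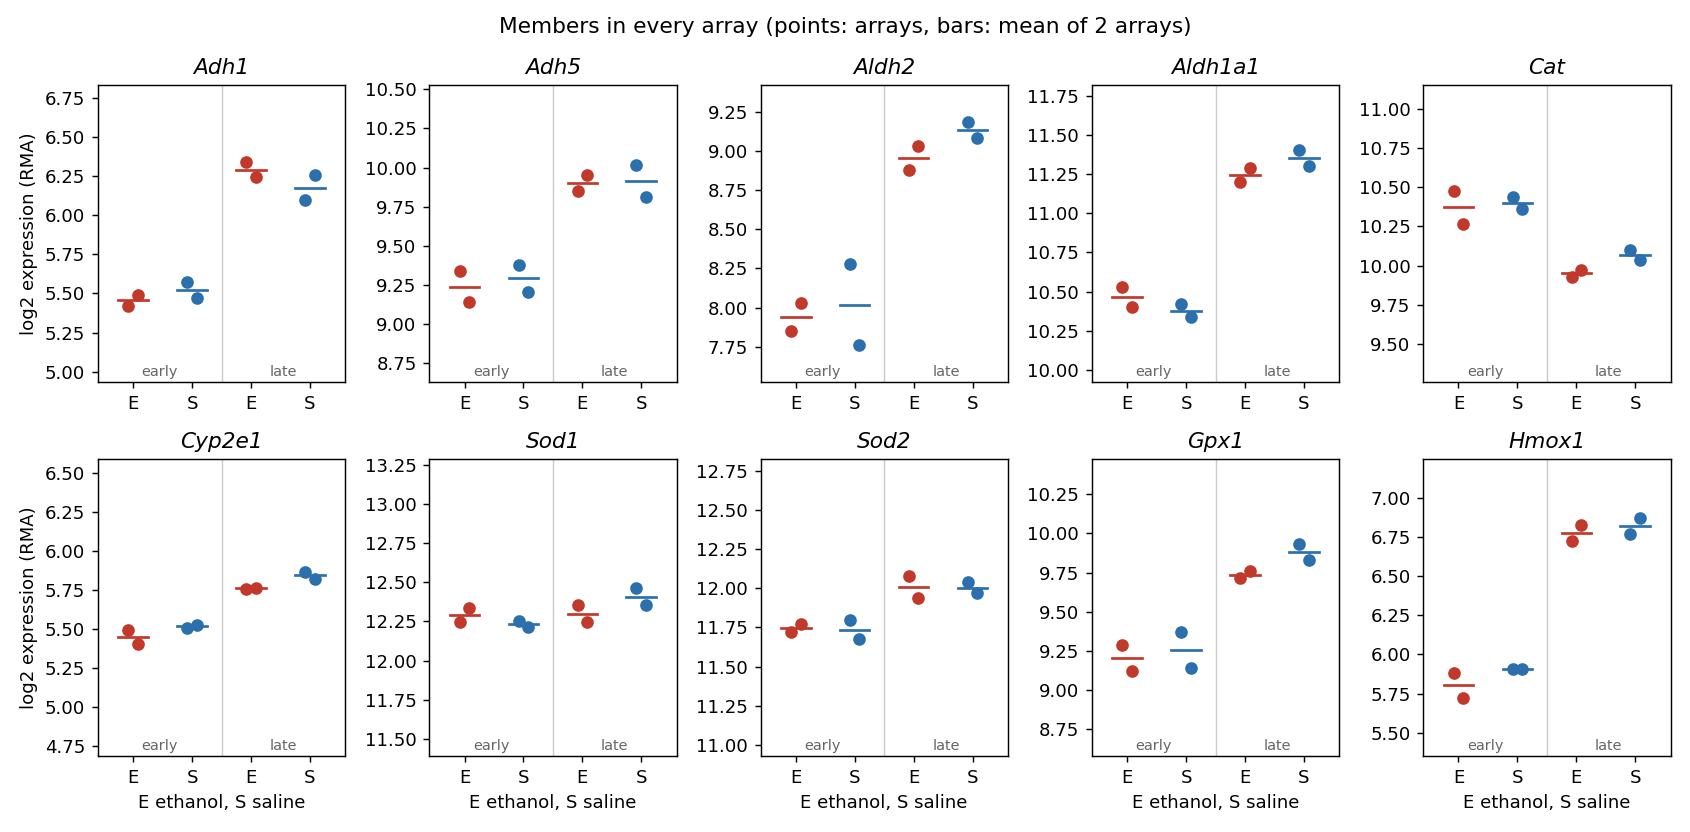
Log2 signal (y axis of each panel) of the 10 genes in the 8 arrays. Within each timing the 2 ethanol arrays are left of the 2 saline arrays. Each point is 1 array (RNA of 3 mice), and the short lines are group means. Adh1, Cyp2e1 and Hmox1 lie under the background level, which averaged 6.73 early and 7.75 late. The Aldh2 saline arrays of the early timing are the farthest apart.

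Sod1, the cytosolic copper and zinc enzyme that turns superoxide into hydrogen peroxide, read 12.24 and 12.34 with early ethanol and 12.25 and 12.21 with early saline. In the late arrays it read 12.35 and 12.24 with ethanol and 12.46 and 12.35 with saline, and the higher ethanol array and the lower saline array were 3e-04 apart. The difference was 0.057 early and -0.11 late (SE 0.085 each), and the early effect exceeded the late one by 0.17 (95% interval -0.11 to 0.44, unadjusted p = 0.2 in limma).

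Sod2, the manganese enzyme of mitochondria, showed the smallest differences of the 10 genes. It read 11.72 and 11.77 with early ethanol and 11.80 and 11.68 with early saline, and 12.08 and 11.94 with late ethanol and 12.04 and 11.97 with late saline. The groups overlapped in both timings. The 95% intervals of the difference ran from -0.19 to 0.21 early and from -0.20 to 0.20 late, inside 1.2-fold on either side.

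Gpx1, a selenium-containing peroxidase that uses glutathione to reduce hydrogen peroxide, read 9.29 and 9.12 with early ethanol and 9.37 and 9.14 with early saline, in overlapping groups. With late ethanol it read 9.71 and 9.76, against 9.93 and 9.83 with late saline, and here the groups were apart. The difference was -0.050 early and -0.14 late (SE 0.105 each). The late value had the smallest unadjusted p of any of the 10 genes in either timing, 0.207 in limma.

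Hmox1, the inducible heme oxygenase, was at background throughout. It read 5.88 and 5.72 with early ethanol, both below the 5.91 of either early saline array, for a difference of -0.10 (SE 0.089). Late ethanol arrays read 6.73 and 6.83 and late saline arrays 6.77 and 6.87, which overlapped, with a difference of -0.045 (SE 0.089).

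None of the 10 genes passed an adjusted p under 0.05 in either timing, and every one of their adjusted p-values was 1. This threshold was passed by 0% of the 23410 probe sets in the early comparison and by 0% in the late one (limma, Benjamini-Hochberg). At an unadjusted p under 0.05 in limma, 401 of the 23410 probe sets passed early and 583 late. Either count is a smaller share than the 0.05 that would pass on average if no probe set differed. An unmoderated test also left 0 after adjustment in both. None of the 10 passed the study's thresholds either, which were passed by 0.923% of all probe sets early and by 1.16% late, and none of the 10 had an unadjusted p under 0.05.

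In the early comparison 3 of the 10 genes were higher and 7 lower with ethanol, with a median difference of -0.051, while 59.8% of all probe sets were lower and their median was -0.020. Both ethanol arrays were below both saline arrays for 2 of the 10 genes, Cyp2e1 and Hmox1, against 18.9% of all probe sets, and above both saline arrays for none, against 7.5% of all. Both of these genes were at background. Of the 7 genes above background, 4 were lower, against 58.8% of the 11150 probe sets above background in both timings. None of the 7 was below without overlap, against 16.3% of those probe sets. When the arrays were centred on their medians, 7 of the 10 genes were lower, none was below without overlap and Sod1 was above; when all were quantile normalized together, 9 were lower, none was below without overlap and Aldh1a1 was above. The median of the 10 genes was 0.050 without early saline array 1, the array that read highest for 5 of them, and -0.086 without early saline array 2. The share of all probe sets that were highest in early saline array 1 is not given here.

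In the late comparison 2 genes were higher and 8 lower with ethanol, with a median of -0.096, against 52.7% lower and a median of -0.0067 over all probe sets. Both ethanol arrays were below both saline arrays for 6 genes (Aldh2, Aldh1a1, Cat, Cyp2e1, Sod1 and Gpx1), against 15.7% of all probe sets, and above them for none, against 12.7%. Probe sets with signal above background were lower more often as a whole, 73.6% of 11150, with a median of -0.054, although this share was 65.04% after median centring and 47.8% after quantile normalization. Among the 7 genes above background 6 were lower and 5 were below without overlap, against 25.5% of probe sets above background. Aldh1a1 and Sod1, which had the narrowest gaps, overlapped when the arrays were median centred or quantile normalized, which left the same 4 genes below in both (Aldh2, Cat, Cyp2e1 and Gpx1, against 10.33% and 12.95% of all probe sets). Cyp2e1 among them was at background, and the matching shares for probe sets above background are not given here. Under either scaling 7 of the 10 genes were lower, with medians of -0.075 and -0.057, and after median centring Adh1 was above without overlap. Without late saline array 1 the median of the 10 genes was -0.061, and without late saline array 2, one of the arrays with the higher receptor background, it was -0.13.

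Late saline array 1 was the highest of the 4 late arrays for 7 of the 10 genes, and for 6 of the 7 above background. The matching share of all probe sets is not given here. That array also had the highest late mean of the neuronal, astrocyte, oligodendrocyte, microglial and macrophage, endothelial, choroid plexus and midbrain dopamine neuron markers. It was not the highest for meningeal and fibroblast, blood or liver markers. Markers of cell types of the brain are given beside these counts, and none of them passed the study's thresholds in the late comparison. All 8 neuronal markers were lower with ethanol, 5 of them without overlap, with mean log2 levels of 11.95 and 11.86 with ethanol and 12.00 and 11.94 with saline. Of the 7 measured oligodendrocyte markers 6 were lower, 5 without overlap, at mean levels of 11.16 and 11.25 with ethanol and 11.36 and 11.29 with saline. Of 8 astrocyte markers 6 were lower, 1 without overlap, and of 8 microglial and macrophage markers 6 were lower, 1 without overlap, while another was above without overlap. Of 8 endothelial markers 7 were lower, 4 without overlap. Lower too were 4 of 8 choroid plexus, 4 of 8 midbrain dopamine neuron and 2 of 8 meningeal and fibroblast markers. Of all probe sets 52.7% were lower and 15.7% below without overlap, and of those above background 73.6% and 25.5%. With early ethanol, 2 of 8 neuronal, 5 of 8 astrocyte, 1 of 7 oligodendrocyte and 3 of 8 microglial and macrophage markers were lower. So were 6 of 8 endothelial, 6 of 8 choroid plexus, 4 of 8 midbrain dopamine neuron and 8 of 8 meningeal and fibroblast markers. Of all probe sets 59.8% were lower early. Th (-0.53, midbrain dopamine neurons) and Dcn (-0.31, meninges and fibroblasts) passed the study's thresholds early. The part of these markers in the values of the 10 genes was not tested.

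**Figure D2:**
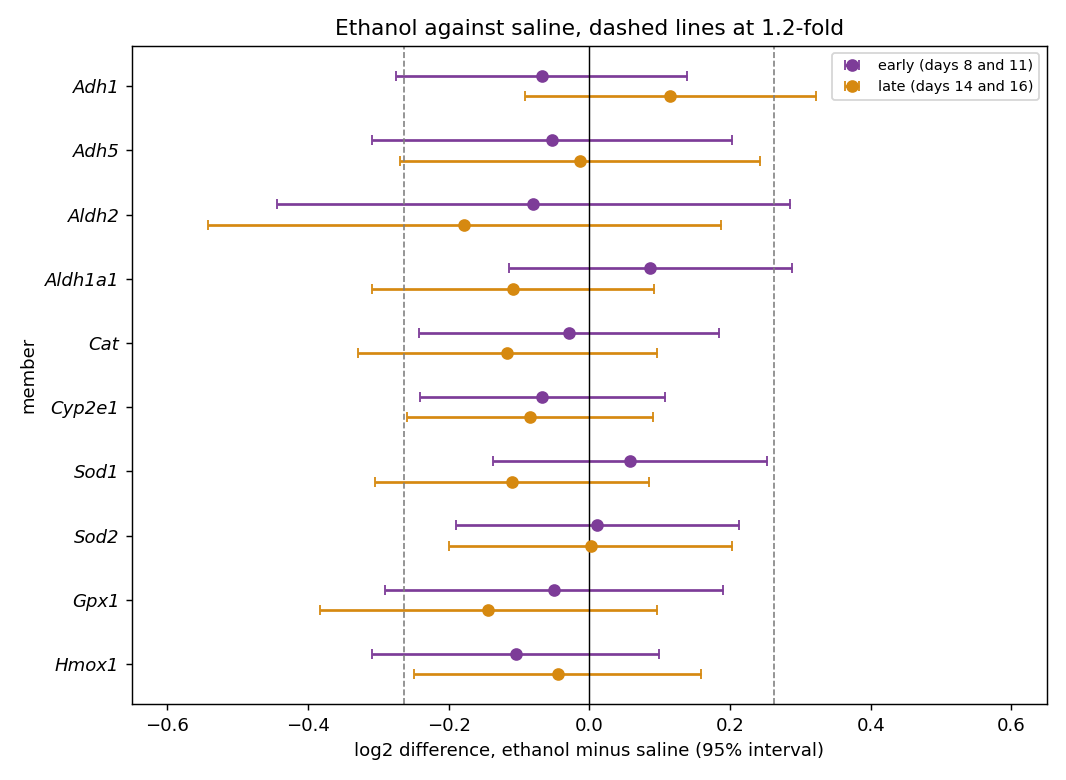
Ethanol minus saline difference on the log2 scale (x axis) for each of the 10 genes (y axis) in the early and late comparisons; points are limma estimates, bars are unadjusted 95% intervals and dashed lines mark 1.2-fold either way. Every interval includes 0, and those of Aldh2 are the widest, down to -0.44 early and -0.54 late.

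The intervals give the range of signal differences that the fit allows, with an estimate of spread shared over the 4 groups. For genes at background they do not bound a change of the transcript. They lay within 1.2-fold on both sides for 4 genes early (Cat, Cyp2e1, Sod1 and Sod2) and for 3 late (Cyp2e1, Sod2 and Hmox1), of which Cyp2e1 and Hmox1 were at background. The widest reached 1.36-fold lower early and 1.46-fold lower late, both for Aldh2, and the next widest were 1.24-fold for Hmox1 early and 1.30-fold for Gpx1 late. With 2 arrays against 2, an exact permutation test could not go below a two-sided p of 0.333 for any single gene.

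The early effect minus the late effect was also tested in its own right. It had an adjusted p under 0.05 for none of the 10 genes and for 0% of all probe sets (483 at an unadjusted p under 0.05 in limma, and 0 adjusted without moderation), and passed the study's thresholds for none of the 10 and for 1.99% of all. The 483 are again a share under 0.05. The effect was more positive early for 7 genes and more negative for 3, with a median of 0.053, which was -0.037 without early saline array 2. Over all probe sets 44.8% were more positive early (median -0.019), and 59.6% of those above background (median 0.034). Oligodendrocyte markers were more positive early for 6 of 7, with a median of 0.28 and with Mbp (0.34), Mobp (0.35) and Cldn11 (0.37) past the study's thresholds. Neuronal and astrocyte markers were so for 7 of 8 each, and microglial and macrophage markers for 5 of 8. Meningeal and fibroblast markers were more negative early for 7 of 8 (median -0.19), and choroid plexus markers for 5 of 8. Endothelial and midbrain dopamine neuron markers each split 4 and 4. The part of these markers was not tested. After Aldh1a1, the differences farthest from 0 were -0.18 for Adh1 (95% interval -0.48 to 0.11) and the 0.17 of Sod1, so that early and late exposure could not be distinguished for any of these genes, nor shown to act alike.

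The 10 genes were compared with each other over the 8 arrays after centring each gene on its mean in each timing. This is a description of arrays that share processing and treatment. Of 45 pairs 32 had a positive Pearson r, with a median of 0.29. The closest pair was Cat and Gpx1 at 0.89, followed by Cat and Cyp2e1 at 0.83 and Adh5 and Gpx1 at 0.81. The lowest r was that of Adh1 with Aldh1a1 at -0.75. The pair of superoxide dismutases had r = 0.64, and each of them was negative with Hmox1. Adh1, Cyp2e1 and Hmox1 were at background, so their r cannot be read as likeness of transcript levels. The r of ordinary pairs of probe sets is not given here for comparison.

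**Figure D3:**
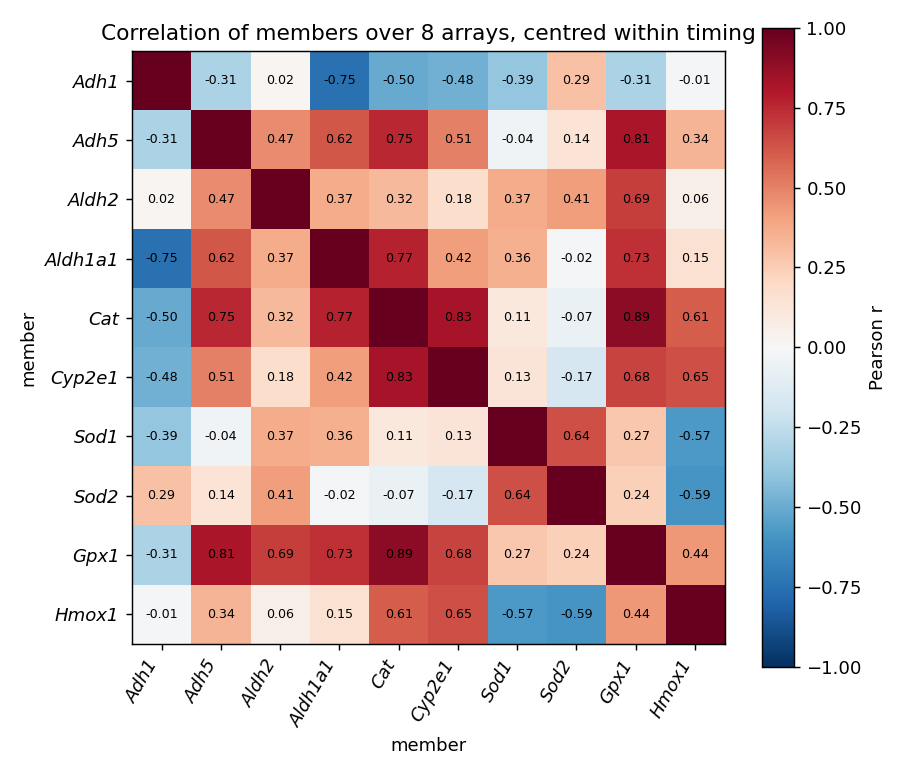
Pearson r between each pair of the 10 genes over 8 arrays after centring within timing, with gene names on both axes and the value printed in each cell (red positive, blue negative). Every pair among Cat, Gpx1, Adh5 and Aldh1a1, all above background, lies between 0.62 and 0.89.

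For each of the 7 genes above background, the gene with the most similar centred profile over the 8 arrays was sought among 10197 others. It was Satb1 for Adh5 (r = 0.99), Gspt1 for Aldh2 (0.99), Pgam5 for Aldh1a1 (1.00), Cog1 for Cat (0.99), Ap3m1 for Sod1 (0.96), Serinc1 for Sod2 (0.96) and Ndrg3 for Gpx1 (0.99). With 8 arrays and so many candidates, values of this size are a description only.

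Around the 10 genes, 87 others of the same pathways were listed in 6 groups, and 81 of these were measured by a probe set of that symbol alone, while 47 were above background in both timings. Early, 35 were higher and 46 lower with ethanol (median -0.015), against 59.8% lower of all probe sets, and none passed the study's thresholds, against 0.923% of all. Late, 19 were higher and 62 lower (median -0.057), and 3 passed, all of them lower: Prdx1, Pex14 and Ftl1. Of all probe sets 52.7% were lower and 1.16% passed in that comparison. After median centring and after quantile normalization 36 and 40 of the 81 were lower in the early comparison, with medians of 0.0074 and 0.0028, and 55 and 51 in the late comparison, where 1 and 0 passed. No adjusted p of the 81 was under 0.05.

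Prdx1 encodes a peroxiredoxin, a cytosolic enzyme that removes hydrogen peroxide with electrons from thioredoxin. It read 11.08 and 11.02 with late ethanol and 11.29 and 11.41 with late saline, a difference of -0.30 (SE 0.10, unadjusted p = 0.0168 in limma, adjusted p = 1). In the early arrays it read 10.79 and 10.76 with ethanol and 10.76 and 10.51 with saline, in overlapping groups, a difference of 0.14 (SE 0.10). The early effect exceeded the late effect by 0.44 (SE 0.14, unadjusted p = 0.0144 in limma, adjusted p = 1.0), the only one of the 81 genes past the study's thresholds in this contrast. Its other probe set gave -0.068 late and 0.072 early, and the mean of both probe sets gave -0.18 late and 0.29 for the contrast, neither of which passed. The late difference also failed the thresholds after quantile normalization (-0.25), without late ethanol array 2 (-0.27) and without late saline array 2 (-0.24), and the contrast without late saline array 2 (0.38, unadjusted p = 0.0509 in limma).

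Pex14, part of the docking complex that brings enzymes such as catalase into peroxisomes, read 8.44 and 8.77 with late ethanol and 8.93 and 8.89 with late saline. Its difference of -0.30 (SE 0.12, unadjusted p = 0.042 in limma) was -0.13 without late ethanol array 1. Ftl1, the light chain of ferritin, which stores iron, read 10.62 and 10.81 with late ethanol and 10.98 and 11.03 with late saline. Its difference of -0.29 (SE 0.11, unadjusted p = 0.0342 in limma) was -0.20 without late ethanol array 1. Neither call held with the unmoderated test, after median centring or quantile normalization, or without any one of late ethanol array 1, late saline array 1 and late saline array 2, and that of Pex14 was also lost in the fit to the late arrays alone and without either early saline array. Their early differences were 0.0087 for Pex14 and 0.0021 for Ftl1.

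By group, the late comparison had 12 of 13 genes of superoxide and peroxide removal lower, 15 of 16 of the glutathione and thioredoxin systems, 14 of 18 Nrf2 regulators and targets, 7 of 9 alcohol dehydrogenases, 9 of 17 aldehyde dehydrogenases and 5 of 8 genes of acetate use and microsomal oxidation. Over all probe sets 52.7% were lower late. Of the 47 pathway genes above background in both timings 44 were lower, against 73.6% of such probe sets, while after median centring 38 were, against 65.04%, and after quantile normalization 31 were, against 47.8%. In the early comparison the counts lower were 8 of 13, 7 of 16, 11 of 18, 7 of 9, 11 of 17 and 2 of 8 in the same order, against 59.8% of all probe sets.

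The gene with the smallest unadjusted p in each group and timing is given next, where not named above. Early, these were Rdh5, a retinol dehydrogenase (-0.19), Aldh1l2, a mitochondrial enzyme of folate metabolism (-0.078, at background), Pex5, the import receptor for peroxisomal enzymes (-0.12), Gpx5, a peroxidase known from the epididymis (-0.20, at background), Gss, glutathione synthetase (-0.14), and Pgd, an NADPH-producing enzyme of the pentose phosphate pathway (-0.23). Late, they were Adh4, a class II alcohol dehydrogenase (0.17, at background), Aldh18a1, an enzyme of proline synthesis (-0.17), and Gclm, the modifier subunit of the enzyme that starts glutathione synthesis (-0.14). None of these passed the study's thresholds. Gclm read 10.57 and 10.54 with early ethanol, above the 10.49 and 10.49 of early saline, and 11.14 and 11.24 with late ethanol, below the 11.37 and 11.29 of late saline.

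**Figure D4:**
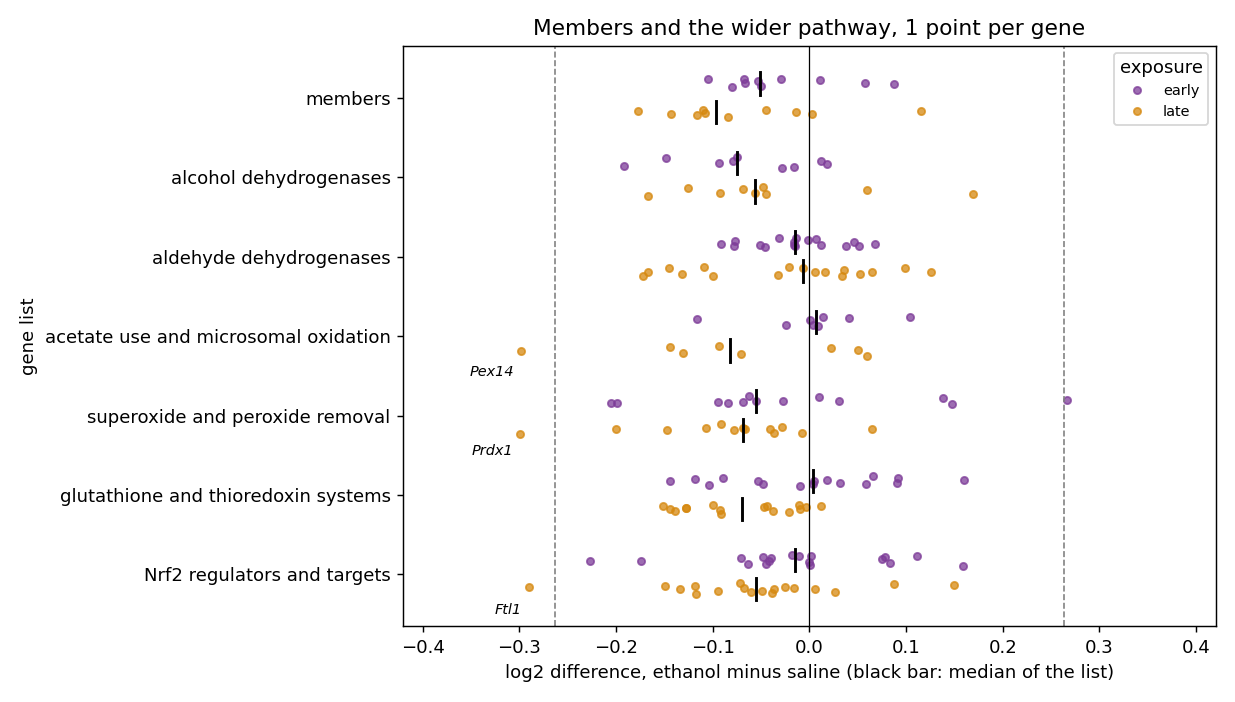
Ethanol minus saline difference on the log2 scale (x axis) in the early and late comparisons. The y axis lists the 10 genes and the 6 pathway groups with their 81 measured genes. Each point is 1 gene, the short line is the median and dashed lines mark 1.2-fold either way. In the late comparison Prdx1, Pex14 and Ftl1 lie beyond the dashed line for lower values, at -0.30, -0.30 and -0.29. In the early comparison Gpx3 lies beyond the line for higher values at 0.27, with an unadjusted p of 0.0546 in limma.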

How the data were processed

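The deposited values are log2 signals. Per the methods, the authors used Affymetrix Command Console to read the arrays, then RMA, quantile normalization and a GC correction in Partek (version 6.6 in the submitters' processing notes). The methods describe the early arrays, and the late arrays were taken to have been processed alike. Of 35556 probe sets, 12146 without a gene symbol in GEO's platform annotation were left out. The build behind this annotation is not given in the sources used here. Only the promoters, from RefSeq, carry coordinates.

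Group means were fitted in limma 3.58.1 (R 4.3.3) over the 8 arrays with moderated variances, and the Benjamini-Hochberg adjustment ran over 23410 probe sets. The p-values measure the spread between pools, and 2 arrays a group limit the precision. For these arrays the methods name gene-level ANOVA p-values. The fit was tested on simulated data, the outcome of which is not given here. Background was judged on the mean of the 4 arrays of each timing. The receptor set was widened, after values had been seen, to probe sets that also carry another symbol, and the same 3 genes were at background with either.

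The genes named were the 10 members, every pathway gene past the study's thresholds, the gene of smallest unadjusted p for each group and timing, and the most similar gene for each member above background. Gpx3 was named after its value was seen. The members and lists were chosen with earlier results of these data known. Alternatives were an unmoderated test, a fit to the arrays of 1 timing, a replicate block, median centring, quantile normalization, removal of the lowest 25% of probe sets, an intensity trend, the mean over probe sets, and leaving out each array. A block with crossed replicate numbers was added after seeing the data.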

Additional observations from a re-analysis of the deposited data

Results flagged for a closer look

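In the pathway groups 3 genes were set apart by how the early and late effects of ethanol differed, either past the study's thresholds in the test of the difference itself or with groups that did not overlap in either timing and lay in opposite orders. Prdx1 was the one past the thresholds. Its early effect exceeded its late effect by 0.44 on the log2 scale (95% interval 0.11 to 0.76), with an unadjusted p of 0.0144 in limma and an adjusted p of 1.0, and the call was lost without late saline replicate 2 and with the mean over its probe sets. Gpx3 and Gclm had both ethanol arrays above both saline arrays early and below both late. Of all probe sets 7.5% were above without overlap early and 15.7% were below late. The share that did both is not given here, so this order is a description only. The difference of effects was 0.36 for Gpx3 (95% interval -0.028 to 0.74, unadjusted p = 0.0651 in limma), which was at background in the late arrays, and 0.20 for Gclm (95% interval -0.052 to 0.46, unadjusted p = 0.103 in limma), and neither passed the test. None of the 10 members met either condition, although Adh1, Aldh1a1 and Sod1 had early and late differences of opposite sign.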

How the results depend on the processing

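With 2 pools a group the intervals, and not the p-values, give the range of differences that the fit allows for the 10 genes. Of 494 values of single members under the alternatives, 493 stayed on the same side of the study's thresholds, and the exception was Aldh2 early at -0.34 without early saline replicate 2. Leaving out each array in turn gave 0 to 1 members past these thresholds early, medians of the members of -0.086 to 0.050 early and -0.037 to 0.097 for the early minus late effect, and 0 to 4 (early), 1 to 3 (late) and 0 to 4 (difference) pathway genes past them.

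The count of pathway genes past the thresholds, 0 early, 3 late and 1 for the difference as reported, was 1 late with the unmoderated test, 1 early and 1 late after median centring, 1 early, 0 late and 2 for the difference after quantile normalization, and 0 for the difference with the mean over probe sets. The cause was not tested. The moderated fit to the 4 arrays of a timing was not run for the difference, which needs both timings.

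Replicate numbers are shared between ethanol and saline arrays, but nothing in the labels makes them pairs. Deviations of arrays with the same number correlated at 0.47 early and -0.46 late. The replicate block gave 1 pathway gene early and 2 for the difference, and 229, 354 and 582 probe sets past the study's thresholds early, late and for the difference, against 216, 272 and 465 without it. With the numbers crossed, an alternative added after seeing the data, there were 564, 519 and 1099, and again 1 and 2 pathway genes.

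Over all probe sets these counts were 60, 58 and 234 with the unmoderated test. Early, they were 781 without early saline replicate 2, 564 without early ethanol replicate 2 (13 past the adjusted threshold), 408 without early ethanol replicate 1 and 426 without early saline replicate 1. Late, they were 1750 without late ethanol replicate 2 and 875 without late saline replicate 1.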
